A study of Danio rerio with 6 samples.

Results

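The circadian clock genes measured here were 5 cryptochrome genes (cry1a, cry1b, cry2, cry3a and cry5), the period genes per2 and per3, the clock gene clocka and the repressor gene nfil3-5. They were chosen by name, as the probe sets whose only gene symbol in the platform annotation is one of 10 listed clock genes. Of these 10, 9 had a probe set and per1b had none, and the 9 genes are among 8793 named on the array. They were read by 12 probe sets, since cry2, cry5 and per2 have 2 each. Of the 12 probe sets, 11 passed the filter on low signals and were tested, and that of per3 did not.

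Whole zebrafish embryos at 72 hours post fertilization were compared in 3 groups of 2 Affymetrix arrays each. The first group received 15 uM of a morpholino against translation of the mRNA for the estrogen receptor ERbeta2 (ERbeta2 MO), the second 15 uM of a standard control morpholino (coMO), both given by injection no later than the 4 cell stage, and the third was left uninjected. Morpholinos are synthetic antisense molecules that pair with a transcript and leave the gene itself intact. A translation blocker need not alter the level of its target mRNA, and the knockdown itself was not checked here. The eggs of all groups were pooled over several aquaria, the embryos were raised in dishes at 28 °C, and no strain, lighting or hour of collection is given in the sources used here. The labels call the 2 samples of a group biological replicates, but do not say how embryos were divided, so the p-values speak for the spread of these samples alone.

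The vertebrate clock is a feedback loop. Clock and Bmal proteins bind DNA as a pair and switch on the period and cryptochrome genes, whose products return to the nucleus and block that pair. A second loop of REV-ERB and ROR receptors sets the level of Bmal, and PAR bZIP activators and NFIL3-type repressors compete for D-box elements in the promoters of output genes. In zebrafish nearly every tissue holds its own clock, and light reaching the cells directly induces some of its genes, per2 and cry1a among them. Since levels of clock genes change with the hour and with light, a level in a group of embryos is that of 1 moment.

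Names of zebrafish cryptochromes have changed. The gene now called cry3a has cry2a among its older names, and the gene now called cry2 was long called cry3, the name the authors' deposited tables use. In reporter assays in cultured cells the older Cry2a protein blocked Clock and Bmal, as the Cry1 proteins did, whereas the older Cry3 protein did not. The gene cry5 encodes the (6-4) photolyase, an enzyme that uses light to repair ultraviolet damage in DNA.

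Among these genes cry3a was lower, and nfil3-5 and 1 of the 2 cry2 probe sets were higher, in ERbeta2 MO than in uninjected embryos. Against coMO embryos the call for cry3a alone passed. Signals are MAS5 values on a linear scale, 1 per probe set and array, and changes are differences of log2(signal + 32) from limma with Benjamini-Hochberg adjustment over 11626 tested probe sets and a threshold of 0.05. Such changes, and the folds given with them, are of signal + 32 and understate those of low genes. The ratios in the authors' deposited tables are another measure and are not to be compared with these folds in size. Of the 11 tested clock probe sets, 1 was called lower and 0 higher against coMO, where 2.29% of all tested probe sets were called (0.654% higher). At an unadjusted p under 0.05 there were 7 of the 11, against 20.4% of all and 3 of 50 tested probe sets of other clock genes described below. These 7 include both cry2 probe sets, and the genes were chosen with earlier results of these data known. The share is therefore a description and not a result about the clock genes as a set. Against uninjected embryos 2 were called higher and 1 lower, where the background was 18.5%, and 6 of the 11 had an unadjusted p under 0.05, against 35.9% of all. That share of 3 of 11 is near the background and is not a result about the clock genes as a set. Between coMO and uninjected embryos limma called 0 of the 11 and 0 of all 11626 (0%). An unadjusted p under 0.05 was found there for 3 of the 11 and 12.5% of all.

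**Figure D1:**
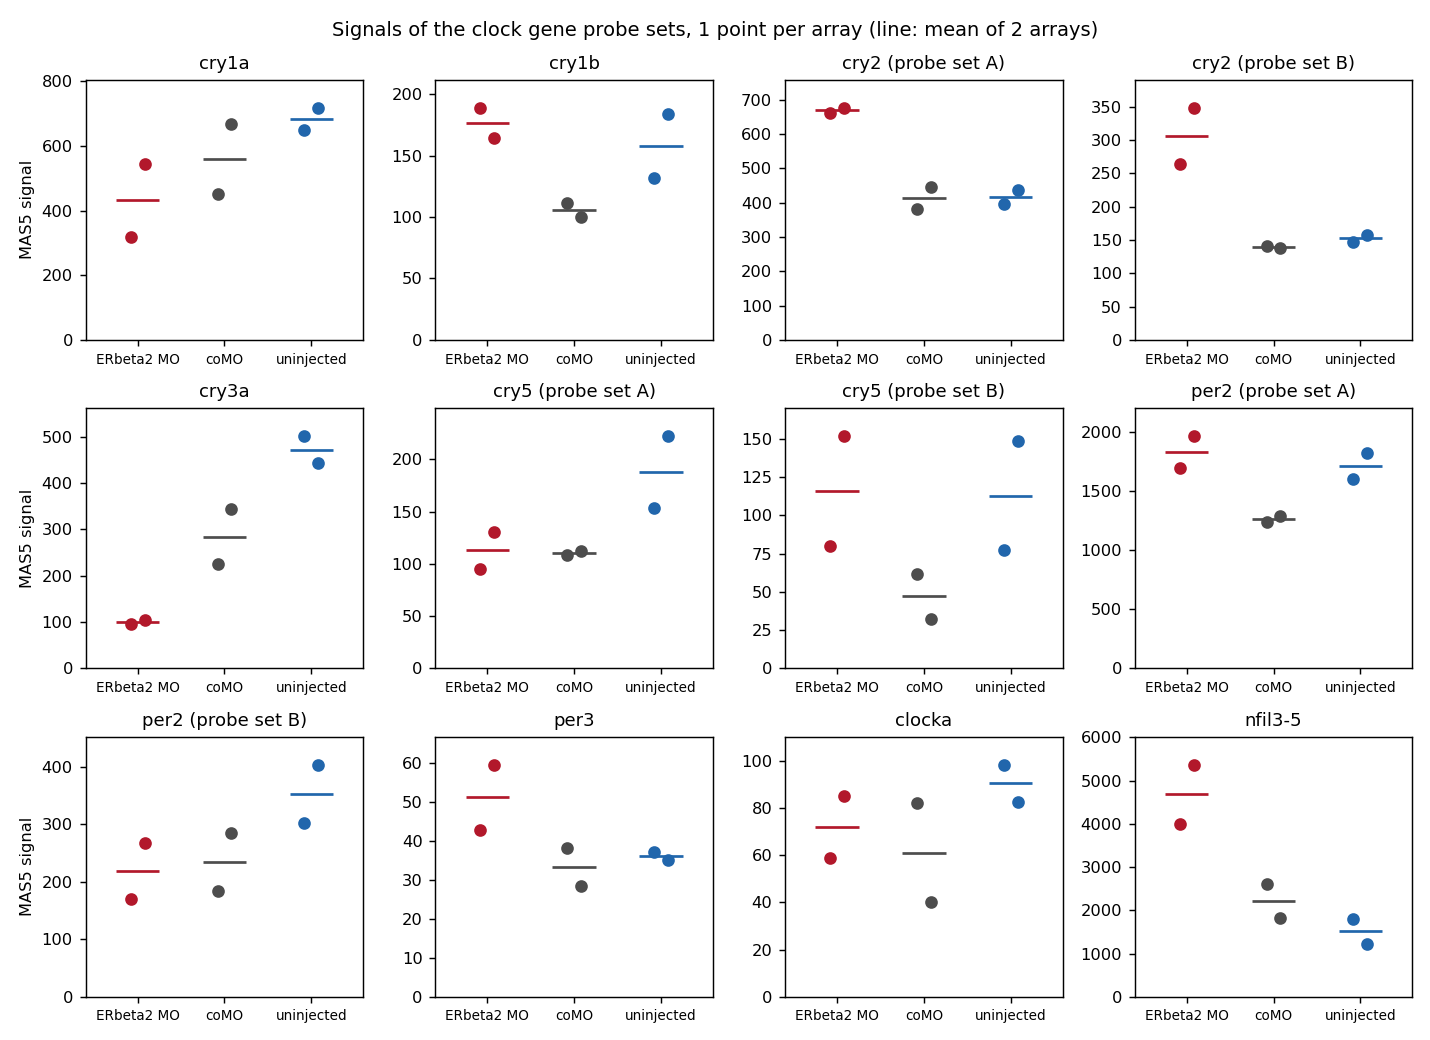
MAS5 signal (linear axis from 0) of each clock probe set on every array, in ERbeta2 MO, coMO and uninjected embryos, with a line at the mean of 2 arrays. The cry3a signals of ERbeta2 MO embryos (95 and 104) lie below all others, and the nfil3-5 signals of ERbeta2 MO embryos (3986 and 5369) lie above all others. Letters A and B mark the brighter and the dimmer of 2 probe sets of a gene.

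The cry3a gene was read by 1 probe set. Its signal was 95 and 104 on the ERbeta2 MO arrays, 225 and 343 on the coMO arrays, and 501 and 442 on the uninjected arrays. The 3 groups did not overlap, and the ERbeta2 MO arrays lay closest together. The means were 99.7 ± 6.64 in ERbeta2 MO, 284 ± 83.7 in coMO and 472 ± 41.7 in uninjected embryos (SD, n = 2 each). Compared with coMO, cry3a fell by 1.24 on the log2 scale, or 2.36-fold (SE 0.24, 95% interval -1.79 to -0.69, limma adjusted p = 0.0449). Compared with uninjected embryos it fell by 1.93, or 3.82-fold (SE 0.24, 95% interval -2.48 to -1.38, limma adjusted p = 0.00402). In these comparisons 1.63% and 10.2% of all tested probe sets were called lower. The coMO signal also lay below the uninjected signal, with a change of -0.70 (95% interval -1.25 to -0.15) that did not pass (limma adjusted p = 0.338). The order of the levels was therefore ERbeta2 MO, coMO, uninjected, and the last step did not pass the test.

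The call against coMO sits close to the threshold and did not hold in 11 of 17 alternative fits, although the sign was the same in all 17. Leaving out coMO replicate 2 gave -0.96 (adjusted p = 0.415) and leaving out coMO replicate 1 gave -1.51 (adjusted p = 0.115). Leaving out uninjected replicate 1 or 2, which enter only through the shared spread, gave an adjusted p of 0.11 or 0.109. Adjusting for the ratio of 3′ to 5′ GAPDH control probe sets, a measure of RNA quality, gave -0.87 (adjusted p = 0.728). The call against uninjected embryos held in 15 of 17 and was lost without uninjected replicate 1 (-1.85, adjusted p = 0.0585) and with the same adjustment (-1.41, adjusted p = 0.539). The authors' deposited tables list cry3a at a ratio of 0.241 for ERbeta2 MO over coMO and 0.154 for ERbeta2 MO over uninjected embryos.

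Most markers of photoreceptors, the light-sensing cells of the retina, were lower in the same embryos. Of 28 tested probe sets of 23 photoreceptor genes, 24 were called lower and 2 higher in ERbeta2 MO than in uninjected embryos. Over all tested probe sets 10.2% were called lower and 8.31% higher there. Compared with coMO embryos 19 were called lower and 0 higher, against 1.63% and 0.654% of all. The signal summed over all 34 photoreceptor probe sets was 12386 and 32212 on ERbeta2 MO arrays, 102574 and 122620 on coMO arrays, and 129419 and 124565 on uninjected arrays. No photoreceptor probe set was at 0 on any array. The 3 brightest of these genes were gngt2b and pde6ha of the cone phototransduction cascade and opn1sw1, the ultraviolet opsin gene, with changes of -3.33, -3.79 and -3.50 against uninjected embryos. Named after their values were seen, the 2 called higher there were nr2e3 (0.80, limma adjusted p = 0.0336) and a gnb1a probe set (0.91, limma adjusted p = 0.0241). The 2 not called, crx (0.74) and the other gnb1a probe set (0.45), also lay above the uninjected arrays on both ERbeta2 MO arrays. The ERbeta2 MO arrays differed between themselves in the photoreceptor sum, at 9.75% and 25.4% of the uninjected mean. In cry3a they did not part in this way, at 20.1% and 22.1% of its uninjected mean. Those cry3a signals, 95 and 104, were not far above the filter at a mean signal of 72.8. The contrast between the 2 measures was not tested. In coMO embryos the photoreceptor sum was 80.8% and 96.6% of the uninjected mean, and cry3a was at 47.7% and 72.7% of its own. The sum is weighted to its brightest genes. Of the 28 tested photoreceptor probe sets, 14 lay lower and 3 higher in coMO than in uninjected embryos without overlap. Over all tested probe sets these shares were 26.3% and 28.9%. The largest fall was that of prph2a, with 220 and 451 on coMO arrays and 918 and 775 on uninjected arrays. A prph2b probe set had close replicates of 22.0 and 25.6 on ERbeta2 MO arrays, while another had 34.1 and 126. In RNA of whole embryos fewer cells of a type and less RNA per cell cannot be told apart, and the part of photoreceptors in the cry3a result was not tested.

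The ratio of the 3′ to the 5′ control probe sets of GAPDH is higher where RNA is less intact. It was highest on the ERbeta2 MO arrays, and the coMO arrays lay on either side of the uninjected ones. The ERbeta2 MO arrays had GAPDH ratios of 2.76 and 2.01, the coMO arrays 1.95 and 1.23, and the uninjected arrays 1.32 and 1.24. For acta1 the ratios were 8.92 and 13.5 on ERbeta2 MO arrays, 21.8 and 10.8 on coMO arrays, and 3.54 and 4.26 on uninjected arrays. The highest acta1 ratio was thus on a coMO array, unlike that of GAPDH. When the fit was adjusted for the log2 GAPDH ratio, limma called 0 probe sets in any of the 3 comparisons, clock genes or others. At that setting 2 residual degrees of freedom remain, and the part of RNA quality in the results was not tested beyond this fit.

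**Figure D2:**
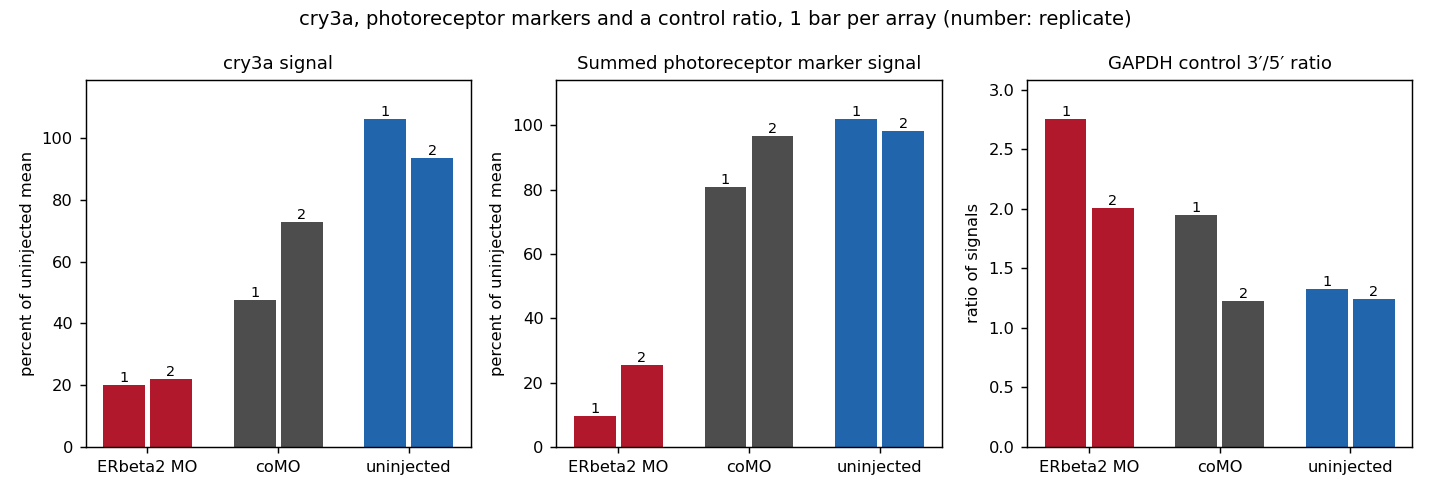
For each array, the cry3a signal and the summed signal of 34 photoreceptor probe sets, both as a percent of the mean of the 2 uninjected arrays, and the GAPDH 3′/5′ control ratio. Both ERbeta2 MO arrays hold about the same cry3a share (20.1% and 22.1%), while their photoreceptor sums are 9.75% and 25.4%. The cry3a signals behind these shares (95 and 104) are not far above the filter at a mean signal of 72.8.

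A further probe set bears no gene symbol in the annotation, but the authors' deposited table describes it as similar to cryptochrome 2a, the older name of cry3a. It was not counted among the clock genes, and it was singled out after its values were seen. Its signal was 3787 and 2840 on ERbeta2 MO arrays, 6726 and 6253 on coMO arrays, and 4894 and 5557 on uninjected arrays. The ERbeta2 MO arrays lay below all others, as for cry3a, but the coMO arrays lay above the uninjected ones. Its changes of -0.98 against coMO (SE 0.20, limma adjusted p = 0.0517) and -0.66 against uninjected embryos (SE 0.20, limma adjusted p = 0.0547) missed the threshold, and they passed in 4 and 1 of 17 alternative fits. The authors' deposited table lists it at a ratio of 0.437 for ERbeta2 MO over coMO.

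The cry2 gene stood the other way, with 1 of its 2 probe sets called higher against uninjected embryos. The brighter of its probe sets gave 662 and 677 on ERbeta2 MO arrays, 383 and 446 on coMO arrays, and 397 and 435 on uninjected arrays. The dimmer gave 264 and 349 on ERbeta2 MO arrays, 141 and 139 on coMO arrays, and 147 and 158 on uninjected arrays. In both probe sets each ERbeta2 MO array exceeded every coMO and uninjected array, and the coMO and uninjected arrays stood close to each other. For the dimmer probe set the change against uninjected embryos was 0.86, or 1.82-fold (SE 0.22, 95% interval 0.37 to 1.36, limma adjusted p = 0.0297), and it was called, where 8.31% of all tested probe sets were called higher. For the brighter it was 0.65 (SE 0.19, 95% interval 0.20 to 1.09, limma adjusted p = 0.0515), which just missed the threshold. Against coMO the changes were 0.65 (95% interval 0.21 to 1.1, limma adjusted p = 0.123) and 0.97 (95% interval 0.47 to 1.46, limma adjusted p = 0.0626) for the brighter and the dimmer, and neither passed. Without ERbeta2 MO replicate 1 that of the dimmer was 1.15, with 1 ERbeta2 MO array left.

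The cry2 call against uninjected embryos held in 9 of 16 alternative fits and was lost in the fit of the 4 arrays compared alone (adjusted p = 0.0553). It was lost as well without any 1 array other than ERbeta2 MO replicate 1 (adjusted p from 0.0563 to 0.199), with changes of 0.68 to 0.91. The coMO level of cry2 differed from the uninjected level by -0.01 (95% interval -0.45 to 0.44) and -0.10 (-0.60 to 0.40) for the brighter and the dimmer probe set. The GAPDH ratios were also higher in ERbeta2 MO (2.76 and 2.01) than in uninjected embryos (1.32 and 1.24). The coMO arrays had ratios of 1.95 and 1.23. Both ERbeta2 MO arrays thus had higher GAPDH ratios than all other arrays, so group and ratio cannot be fully told apart here. After adjustment for that ratio the change of the called probe set was 1.07 (adjusted p = 0.539). The part of RNA quality was not tested beyond that fit. The authors' deposited tables list the dimmer probe set at ratios of 2.53 over coMO and 2.54 over uninjected embryos, and the brighter at 2.05 over coMO.

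The remaining cryptochrome genes among those chosen, cry1a, cry1b and cry5, did not pass in any comparison. The gene cry3b was not among those chosen and lay below the filter. Its signals were 52.3 and 48.5 on ERbeta2 MO arrays, 28.7 and 69.0 on coMO arrays, and 104 and 89.4 on uninjected arrays. With no filter its changes against uninjected embryos were -0.64 in ERbeta2 MO and -0.71 in coMO (limma adjusted p = 0.17 and 0.421). The light-induced gene cry1a had signals of 319 and 545 on ERbeta2 MO arrays, 451 and 669 on coMO arrays, and 650 and 719 on uninjected arrays. Its lowest mean was in ERbeta2 MO embryos, and its changes were -0.37 against coMO (95% interval -1.03 to 0.29, limma adjusted p = 0.509) and -0.67 against uninjected embryos (-1.33 to -0.01, limma adjusted p = 0.136). Without ERbeta2 MO replicate 2, the array with the higher signal, the change against uninjected embryos was -1.03, with 1 ERbeta2 MO array left. After GAPDH adjustment it was 0.26 (adjusted p = 0.851). The paralog cry1b, whose product also blocks Clock and Bmal, had 189 and 164 on ERbeta2 MO arrays, 112 and 99.9 on coMO arrays, and 131 and 184 on uninjected arrays. Its lowest group was coMO, with a change of 0.60 for ERbeta2 MO against coMO (95% interval 0.07 to 1.13, limma adjusted p = 0.202).

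The 2 probe sets of the photolyase gene cry5 gave different pictures. The brighter had 95.3 and 131 on ERbeta2 MO arrays, 108 and 112 on coMO arrays, and 153 and 222 on uninjected arrays, so that both injected groups lay below the uninjected one. The dimmer had 79.6 and 152 on ERbeta2 MO arrays, 61.6 and 32.4 on coMO arrays, and 77.3 and 148 on uninjected arrays, so that the coMO group alone was low. Replicates of the dimmer probe set differed by nearly as much as the groups. None of the 6 changes passed, with values against uninjected embryos of -0.59 and 0.03 (brighter, then dimmer) for ERbeta2 MO and -0.61 and -0.85 for coMO. The authors' deposited table lists the dimmer probe set at a ratio of 2.43 for ERbeta2 MO over coMO, where the limma change was 0.88 (95% interval 0.07 to 1.70, adjusted p = 0.215).

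The period genes encode the partners of the cryptochromes in the repressing complex. The brighter per2 probe set had 1695 and 1963 on ERbeta2 MO arrays, 1238 and 1287 on coMO arrays, and 1600 and 1820 on uninjected arrays. Its coMO arrays lay below the other 4, and its changes of 0.52 for ERbeta2 MO against coMO (95% interval 0.09 to 0.95, limma adjusted p = 0.182) and -0.43 for coMO against uninjected embryos (-0.86 to 0.01, limma adjusted p = 0.404) did not pass. The dimmer per2 probe set had 170 and 267 on ERbeta2 MO arrays, 184 and 285 on coMO arrays, and 302 and 404 on uninjected arrays. Here both injected groups lay below the uninjected arrays, with changes of -0.63 and -0.55 (limma adjusted p = 0.153 and 0.467). Without ERbeta2 MO replicate 2 the ERbeta2 MO change was -0.92, with 1 array left in that group. After GAPDH adjustment the ERbeta2 MO change was 0.25 (adjusted p = 0.859). The 2 probe sets thus placed ERbeta2 MO differently, level with uninjected embryos by one and below them by the other.

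The signals of per3 were 42.9 and 59.6 on ERbeta2 MO arrays, 38.3 and 28.5 on coMO arrays, and 37.3 and 35.0 on uninjected arrays. They lay below the filter at a mean signal of 72.8. In the fit with no filter the per3 changes were 0.35, 0.28 and -0.06 in the 3 comparisons, and none passed (adjusted p from 0.464 to 0.942).

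The positive arm was represented by clocka, which encodes the Clock partner of the activating pair. Its signals were 58.8 and 85.0 on ERbeta2 MO arrays, 82.1 and 40 on coMO arrays, and 98.4 and 82.7 on uninjected arrays. The mean lay just above the filter, the 2 coMO arrays differed 2.05-fold, and ERbeta2 MO overlapped with both other groups. The changes were 0.18 against coMO (95% interval -0.48 to 0.85) and -0.25 against uninjected embryos (-0.91 to 0.42), and neither passed (limma adjusted p = 0.761 and 0.575).

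The gene nfil3-5 encodes a bZIP protein of the E4BP4 family, whose members repress transcription at D-box elements. It had signals of 3986 and 5369 on ERbeta2 MO arrays, 2600 and 1818 on coMO arrays, and 1807 and 1228 on uninjected arrays. All groups were apart, with ERbeta2 MO highest, although the lower coMO array and the higher uninjected array were nearly level. The means were 4678 ± 978, 2209 ± 553 and 1518 ± 409 in the same order (SD, n = 2 each). Compared with uninjected embryos nfil3-5 rose by 1.61 on the log2 scale, or 3.06-fold (SE 0.27, 95% interval 0.99 to 2.24, limma adjusted p = 0.00862). Compared with coMO the change was 1.08 (SE 0.27, 95% interval 0.45 to 1.70, limma adjusted p = 0.0833), and coMO differed from uninjected embryos by 0.54 (95% interval -0.09 to 1.16, limma adjusted p = 0.453).

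The nfil3-5 call against uninjected embryos held in 14 of 17 alternative fits. It was lost without uninjected replicate 1 (1.89, adjusted p = 0.0559), without uninjected replicate 2 (1.34, adjusted p = 0.0734) and after GAPDH adjustment (1.36, adjusted p = 0.54). That ratio was 2.76 and 2.01 in ERbeta2 MO against 1.32 and 1.24 in uninjected embryos, and its part in the result was not tested beyond that fit. Without ERbeta2 MO replicate 1 the change against coMO was 1.29, with 1 ERbeta2 MO array left. The authors' deposited tables list nfil3-5 at ratios of 2.25 over coMO and 3.525 over uninjected embryos.

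**Figure D3:**
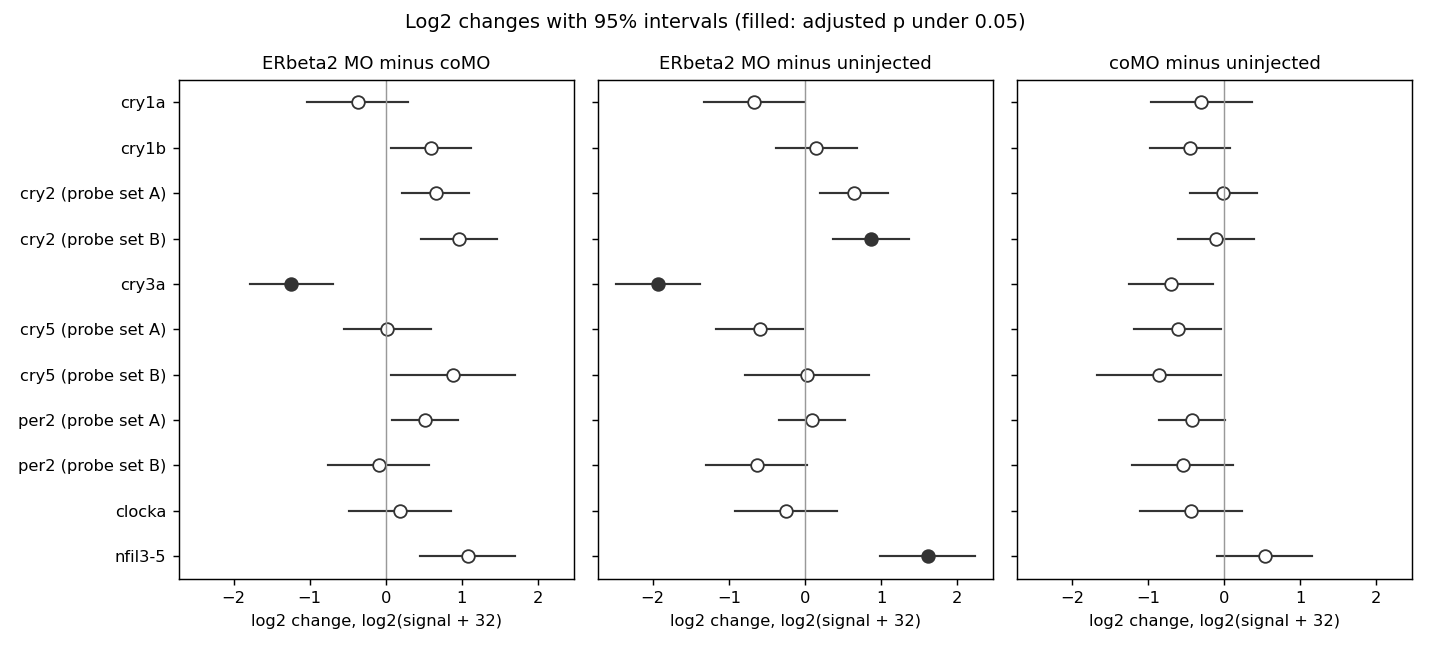
Log2 change, on the log2(signal + 32) scale, of the 11 tested clock probe sets in the 3 comparisons, with 95% intervals from limma. Filled points passed an adjusted p of 0.05. They are cry3a in both comparisons of ERbeta2 MO (-1.24 and -1.93), and nfil3-5 (1.61) and the dimmer cry2 probe set (0.86) against uninjected embryos.

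The coMO mean was the lowest of the 3 groups in 7 of the 11 tested clock probe sets (63.6%), against 20.9% of all tested probe sets, and it lay between the others in 4 (36.4%), against 56.4% of all. Those with the lowest mean in coMO were cry1b, both probe sets of cry2 and of cry5, the brighter of per2, and clocka. For cry2 the coMO and uninjected means were nearly level, with changes of -0.01 (brighter, arrays overlapping) and -0.10 (dimmer), so its place in this count means little. Compared with uninjected embryos, 8 of the 11 lay lower in coMO without overlap and 1 higher, where 26.3% of all tested probe sets lay lower and 28.9% higher without overlap. The median change of the 11 was -0.43, and that of all tested probe sets 0.02. Since 0 of the 11 passed, this is a description of these 4 arrays. The -0.43 is the value of clocka, which is also among the 8. Its mean signals were 71.9 in ERbeta2 MO, 61.0 in coMO and 90.6 in uninjected embryos. It passed the filter at 72.8 only through the uninjected arrays, which favours a lower coMO value. Compared with coMO, 6 of the 11 lay higher in ERbeta2 MO without overlap and 1 lower, where the background was 24.6% and 23.5%, and the median change was 0.52 against -0.01 for all. Compared with uninjected embryos, 3 lay higher and 4 lower in ERbeta2 MO without overlap, where the background was 33.6% and 30.1%. These counts share arrays, and probe sets of 1 gene count separately in them.

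Replicates of the clock probe sets lay further apart than those of the typical probe set in coMO embryos, and about as far apart in the other groups. The ratio of the higher to the lower replicate had a median of 1.35 in ERbeta2 MO, 1.43 in coMO and 1.19 in uninjected embryos, against 1.30, 1.19 and 1.14 for all tested probe sets. The widest spread among the clock probe sets was 2.05 in coMO, for clocka.

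The rest of the pathway was taken from lists of 101 further clock genes, of which 50 had probe sets and 41 a tested one. Against coMO embryos 0 of their 50 tested probe sets were called by limma, 3 had an unadjusted p under 0.05, and the median change was -0.03. Against uninjected embryos 6 were called lower and 1 higher in ERbeta2 MO, with a median change of 0.02, and this share of 7 of 50 lies below the background of 18.5%. Between coMO and uninjected embryos 0 were called, with 7 at an unadjusted p under 0.05.

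In the positive arm besides clocka, 0 of 5 tested probe sets of bmal1a, bmal1b, bmal2 and clockb passed in any comparison. Their changes against uninjected embryos ranged from -0.46 to 0.38. Of 4 further genes listed with the repressors, bhlhe40, a helix-loop-helix repressor of Clock and Bmal targets, was called lower. Its signals were 1376 and 946 on ERbeta2 MO arrays, 1959 and 2598 on coMO arrays, and 2923 and 3082 on uninjected arrays. The groups did not overlap, and bhlhe40 fell by 1.37 against uninjected embryos (SE 0.24, limma adjusted p = 0.00954), while the change against coMO was -0.96 (limma adjusted p = 0.0798). After GAPDH adjustment the bhlhe40 change against uninjected embryos was -1.33 (adjusted p = 0.539). The other 3 of the list, bhlhe41, ciarta and the cryptochrome gene cry4, did not pass. Whether all of them act as repressors was not examined here. Changes in this list against uninjected embryos ranged from -1.37 to 0.73. The highest was that of ciarta, with 1701 and 2196 on ERbeta2 MO arrays, 1142 and 1069 on coMO arrays, and 951 and 1389 on uninjected arrays. Its changes were 0.79 against coMO and 0.73 against uninjected embryos (limma adjusted p = 0.128 and 0.0644).

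In the second loop the REV-ERB genes nr1d2a and nr1d2b were called lower in ERbeta2 MO than in uninjected embryos, in 2 of 5 tested probe sets of that list. The nr1d2a signals were 81.8 and 190 on ERbeta2 MO arrays, 186 and 245 on coMO arrays, and 483 and 361 on uninjected arrays, and nr1d2a fell by 1.5 (SE 0.33, limma adjusted p = 0.02). The nr1d2b probe set that passed had 118 and 437 on ERbeta2 MO arrays and 348 and 727 on coMO arrays. On uninjected arrays it had 1002 and 1015, and it fell by 1.97 (SE 0.51, limma adjusted p = 0.0317). The 2 replicates of each injected group differed widely in this probe set. The brighter nr1d2b probe set had 1102 and 1600 on ERbeta2 MO arrays, 1627 and 1846 on coMO arrays, and 1930 and 1952 on uninjected arrays. Its change of -0.54 against uninjected embryos did not pass (limma adjusted p = 0.123). After GAPDH adjustment the nr1d2a change was -0.66 (adjusted p = 0.701). That of the called nr1d2b probe set was -0.09 (adjusted p = 0.966).

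Of the D-box factors besides nfil3-5, tefa, a PAR bZIP activator gene, had 1 of its 2 probe sets called lower, and the 4 other tested probe sets of the list did not pass. The called probe set had 276 and 376 on ERbeta2 MO arrays, 350 and 646 on coMO arrays, and 1069 and 1105 on uninjected arrays, and fell by 1.66 against uninjected embryos (SE 0.29, limma adjusted p = 0.0098). After GAPDH adjustment the change was -0.68 (adjusted p = 0.604). The other tefa probe set, with 1981 and 2402 on ERbeta2 MO arrays, 1819 and 1921 on coMO arrays, and 1768 and 2009 on uninjected arrays, changed by 0.21 (limma adjusted p = 0.474).

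Among 15 probe sets of kinases and degradation factors of clock proteins, both probe sets of prkaa1, a subunit gene of the energy sensor AMPK, were called lower against uninjected embryos (-1.47 and -1.01, limma adjusted p = 0.0146 and 0.0274). The prkaa1 change of -1.47 was -0.59 (adjusted p = 0.658) after GAPDH adjustment. The kinase gene gsk3ab, named after its values were seen since it alone was higher, rose by 0.82 (SE 0.21, limma adjusted p = 0.033), and this call held in 9 of 17 alternative fits. After GAPDH adjustment the gsk3ab change was 0.79 (adjusted p = 0.603). The calls of bhlhe40, nr1d2a, tefa and the prkaa1 probe set at -1.47 were lost without uninjected replicate 1 (adjusted p from 0.0910 to 0.161), without uninjected replicate 2 (0.0681 to 0.101) and after GAPDH adjustment, and held in the other alternative fits. Those of nr1d2b and gsk3ab were lost without either coMO or either uninjected array, after GAPDH adjustment and with only the 4 arrays compared. The gsk3ab call was also lost in others of the 17 alternative fits, while that of nr1d2b held in 11 of 17. None of the 8 probe sets of photolyases and light-induced DNA repair passed (-0.49 to 0.38 against uninjected embryos). Nor did any of the 7 tested probe sets of the pineal and melatonin list (-0.41 to 0.74). That list has 19 probe sets, and the rest lay below the filter and were not tested. It holds exorh and aanat2, markers of the light-sensing pineal organ, and shares crx with the photoreceptor markers.

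**Figure D4:**
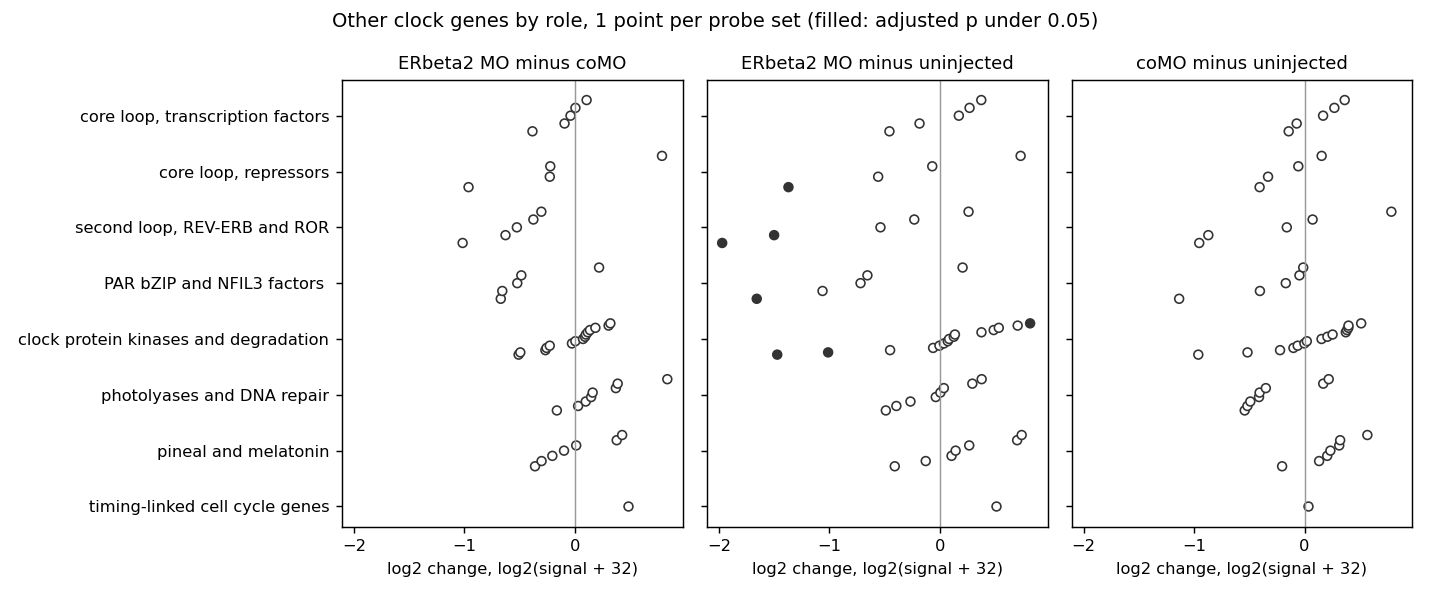
Log2 change, on the log2(signal + 32) scale, of 50 tested probe sets of other clock genes, grouped by role, in the 3 comparisons. Filled points passed an adjusted p of 0.05. All 7 are in the comparison of ERbeta2 MO with uninjected embryos, with 6 lower and 1 higher.

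The disagreement between probe sets of 1 gene was tested in its own right, a test added after the values were seen. For each of 1112 genes with at least 2 tested probe sets, the difference between the log2 values of the second brightest and the brightest was fitted with limma. Against uninjected embryos it changed in ERbeta2 MO for 3 of 12 clock genes, tefa (-1.87, adjusted p = 0.00997), nr1d2b (-1.43, adjusted p = 0.0271) and csnk1da (-0.83, adjusted p = 0.0455), and for 24.9% of all 1112 genes, so the clock genes did not stand apart. None of these was cry2, cry5 or per2, whose changes were 0.22 (95% interval -0.36 to 0.79), 0.62 (-0.02 to 1.26) and -0.73 (-1.35 to -0.11, adjusted p = 0.0774). The test found 0 genes in the other 2 comparisons. The ERbeta2 MO arrays had tefa differences of -2.71 and -2.58 and GAPDH ratios of 2.76 and 2.01. The coMO arrays had tefa differences of -2.28 and -1.53 and GAPDH ratios of 1.95 and 1.23, and the uninjected arrays -0.71 and -0.84 with ratios of 1.32 and 1.24. The part of RNA quality in these differences was not tested.

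**Figure D5:**
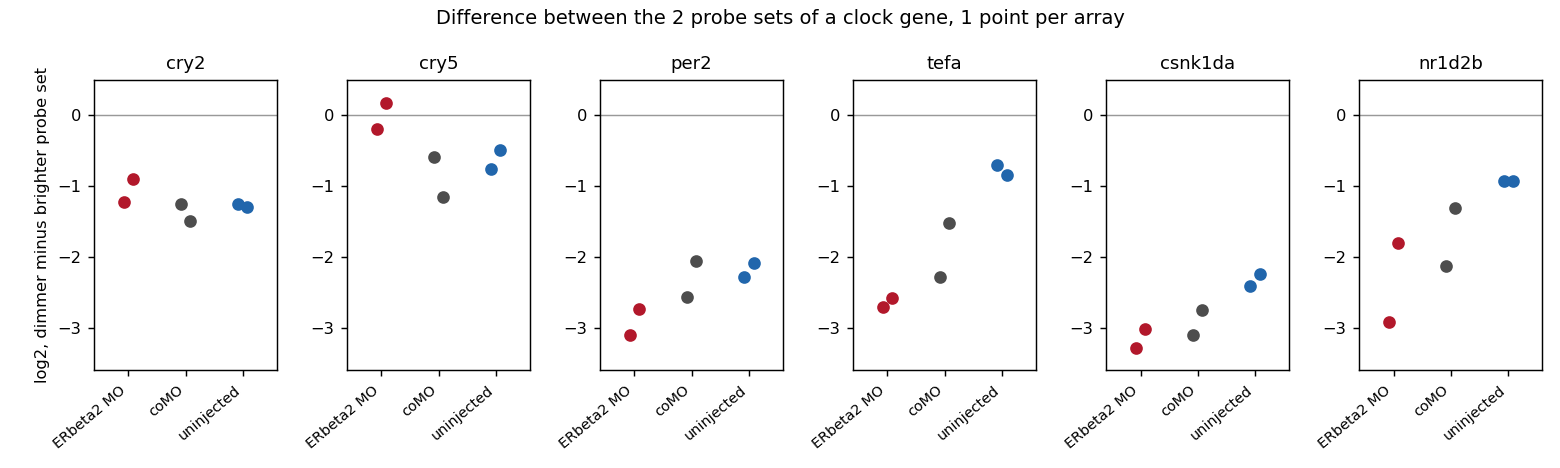
Difference in log2(signal + 32) between the dimmer and the brighter probe set of 6 clock genes on every array. For tefa, csnk1da and nr1d2b the uninjected arrays lie above all others, and for tefa both ERbeta2 MO arrays lie below all others. The cry2 differences lie between -1.49 and -0.90 in all groups.

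Genes with the most similar pattern over the 6 arrays were found as those with the smallest root mean square difference of log2 values, each centred on its own mean, among tested probe sets with 1 symbol. For cry3a they were sult2st2 (0.0948), pklr (0.122) and shbg (0.123). The sult2st2 signals were 366 and 398 on ERbeta2 MO arrays, 862 and 1293 on coMO arrays, and 1815 and 1762 on uninjected arrays. For nfil3-5 they were vegfaa (0.147), nat8l (0.166) and nob1 (0.193), and the vegfaa signals were 379 and 417 on ERbeta2 MO arrays, 176 and 136 on coMO arrays, and 127 and 99.3 on uninjected arrays. For the called cry2 probe set they were gemin5 (0.0879), ddx3xa (0.0899) and marcksa (0.0995). With 6 arrays and 11626 probe sets many patterns lie close together, so these names are a description of the arrays.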

How the data were processed

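RNA of whole embryos was measured on 6 Affymetrix arrays. The authors deposited 1 intensity per probe set and array, made with MAS5 per the submitters' processing notes, which give no version. The arrays share a 2%-trimmed mean of 500.1. Detection calls were not used here, and 2 arrays a group limit the precision. Also deposited by the authors were 3 tables of fold ratios, which, judged from the values leave out ratios between 0.5 and 2. Their direction was taken from the sign of the changes in the value table, which agreed for at least 99.8% of entries.

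The platform annotation gives 1 gene symbol to 10802 of 15617 probe sets, several to 135 and none to 4680, and RefSeq's GRCz12tu gene table supplied current symbols. No coordinates or probe sequences were used. The 115 control probe sets and the 25% with the lowest mean signal were left out, which left 11626. The log2(signal + 32) values of all 6 arrays were fitted as 3 groups with lmFit and eBayes with an intensity trend (limma 3.58.1, R 4.3.3), leaving 3 residual degrees of freedom beside a prior of 5.28. All p-values are two-sided. With 2 arrays a group, the smallest p of an exact permutation test is 0.333. Probe sets of a gene were kept apart. On simulated data for ERbeta2 MO against coMO with 11626 probe sets, 91% of changes of 2 and 13% of changes of 1 on the log2 scale were recovered, with 3 false calls. The simulated noise followed the fitted prior and was independent between arrays and probe sets. It held no effect on a whole array, such as RNA quality, so the false calls in the real data cannot be read from it. The clock genes, the further lists and the tests were chosen with earlier results of these data known. Named genes were all clock members, up to 5 called genes of the further lists per comparison, the 3 brightest photoreceptor markers and the 3 nearest patterns of each called member, with exceptions stated in the text. The alternatives were other pseudocounts, filters, scalings and priors, fits of 4 arrays, a replicate block, a GAPDH covariate, the brightest probe set of each gene, and each array left out in turn.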

Additional observations from a re-analysis of the deposited data

How the results depend on the processing

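Of 546 refits of the 33 clock gene changes, 497 kept their direction and their side of the threshold, 23 lost a call and 8 gained one. In 18 the sign changed, all between values that did not pass. Most of the 33 changes were not called in the main fit and had no call to lose. The call of cry3a against coMO held in 6 of 17 refits. Against uninjected embryos the calls held in 15 of 17 for cry3a, 9 of 16 for the dimmer cry2 probe set and 14 of 17 for nfil3-5. The 266 calls against coMO became 160 with a pseudocount of 1, 129 with no filter, 60 with only the 4 arrays compared and 0 after GAPDH adjustment, and between 0 and 1602 when 1 array was left out. The clock calls there fell from 1 to 0 with no filter, with the 50% lowest left out, with median centring, with quantile normalization, with only the 4 arrays compared and after GAPDH adjustment, and lay between 0 and 3 with 1 array left out. Against uninjected embryos the 2156 calls and the 3 clock calls became 0 and 0 after GAPDH adjustment, and with 1 array left out lay between 35 and 3150, and 0 and 4. Between coMO and uninjected embryos the 0 calls became 2 with only the 4 arrays compared and up to 4 with 1 array left out. With 1 array left in a group, it is assumed to vary like the others. The cause of these changes was not tested.

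Sign changes against coMO after GAPDH adjustment were to 0.27 for cry1a, 0.52 for the dimmer per2 probe set, -0.0823 for clocka, 0.28 for nr1d2b, 0.16 for tefa and 0.10 for prkaa1. Against uninjected embryos they were to 0.26 for cry1a, -0.016 for cry1b and 0.25 for the dimmer per2 probe set, and for cry2 in coMO to 0.0581, and to 0.00184 with median centring.

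With 1 array left out, changes against coMO ranged from -0.16 to 0.20 for the brighter cry5, -0.37 to 0.19 for the dimmer per2 and -0.15 to 0.52 for the clocka probe set. Against uninjected embryos they ranged from -0.051 to 0.35 for cry1b, -0.33 to 0.39 for the dimmer cry5 and -0.00935 to 0.20 for the brighter per2 probe set, and for cry2 in coMO from -0.11 to 0.0945.

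Over all tested probe sets same-numbered arrays deviated little together (correlations of -0.08, 0.11 and -0.10). Replicate 2 was the higher in every group for cry1a, both per2 probe sets and the brighter of cry2 and cry5. The other tested clock probe sets did not do so. Whether same-numbered arrays share an hour of collection or another condition was not tested. With a replicate block the calls against coMO were 142, of which 0 were clock genes, and those against uninjected embryos 1927.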
